A study of Mus musculus with 10 samples.

Results

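The carnitine transporters described here are 6 genes whose proteins move, or were first described as moving, carnitine or its acyl esters across a membrane. The 6 are Slc22a5, Slc22a4, Slc22a21 and Slc22a16 at the cell surface and Slc25a20 and Slc25a29 in the mitochondrial inner membrane. They were taken by symbol from 22180 genes measured on Affymetrix Mouse Gene 2.0 ST arrays, all 6 were found, and each had 1 probe set with exactly 1 gene symbol, so no choice between probe sets was needed. The muscle was gastrocnemius of male NMRI mice, an outbred stock without a genetic change. In the control group, 5 mice ate a basal diet of natural ingredients with less than 5 mg carnitine per kg, and in the carnitine group 5 mice ate this diet with 1000 mg L-carnitine added per kg, both begun after 1 week of acclimatisation that started at the age of 3 weeks. Mice lived 5 to a cage, and no label says which arrays share a cage. Mice of the study were killed at 9, 15 or 18 months, the labels do not tie an array to an age, and a difference in age between arrays cannot be told apart from the values given below.

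L-carnitine is the carrier on which long-chain fatty acids enter mitochondria. Muscle makes almost none of its own carnitine and takes it from the blood against a steep gradient, chiefly through the sodium-dependent transporter OCTN2, the product of Slc22a5, whose loss causes systemic carnitine deficiency in people and in juvenile visceral steatosis mice. Inside the cell, an acyl group is placed on carnitine at the outer mitochondrial membrane, the acylcarnitine is exchanged for free carnitine by the carrier CACT, the product of Slc25a20, and the acyl group is handed back to coenzyme A in the matrix. The comparison asks whether a lifelong surplus of dietary carnitine goes with other transcript levels of these transporters.

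Of the 6 genes, 0 differed between the diets at an adjusted p of 0.05 in limma (a linear model with moderated variances, Benjamini-Hochberg adjustment over all 22180 genes), and the same count over all genes was 0, or 0%. The gene with the clearest separation was Slc22a21, where every carnitine mouse read lower than each of the controls, with a dim signal and an adjusted p of 0.71. Slc22a5 and Slc25a20, the uptake transporter and the mitochondrial carrier, differed by 0.04 and 0.17 on the log2 scale, less than the spread between mice. At an unadjusted p below 0.05 stood 1 of the 6 genes, against 6.97% of all genes (1546, of which 696 higher and 850 lower, or 887 higher and 533 lower after median centring), and the groups did not overlap in 1 of the 6, against 1.11% of all genes. In each of these counts the gene was Slc22a21. Its exact permutation test, over the 252 assignments of the same arrays, is given below. That test reaches its smallest p, 0.0079, exactly where the groups do not overlap. It therefore restates the lack of overlap, with the same share of 1.11% of all genes.

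Values are RMA log2 values, in which the level of a probe set depends on its probes as well as on its transcript, so levels are given by their place among all 34390 probe sets, whose median was 5.80, and are no measure of transcript abundance between genes. Of all genes, 58.3% lay above this median of probe sets. Slc25a20, Slc22a5 and Slc25a29 lay above this median, with means over the 10 arrays of 9.21, 6.44 and 6.38, and each was above the array's own median on all 10 arrays. Slc22a4, Slc22a21 and Slc22a16 lay just below it, at 5.74, 5.71 and 5.66, where a probe set may carry little more than background. The mean of Slc25a20 was above that of 94.8% of probe sets, those of Slc22a5 and Slc25a29 above 64.2% and 63.3%, and those of the 3 dim genes above 46.7% to 48.5%. In whole muscle, fewer cells of a type and less RNA per cell cannot be told apart. The tissue label was checked on 7 muscle genes (Acta1, Ckm, Mb, Des, Ttn, Myh4 and Tnnt3), whose mean ran from 13.19 to 13.30 over the 10 arrays, near the top of the scale.

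**Figure D1:**
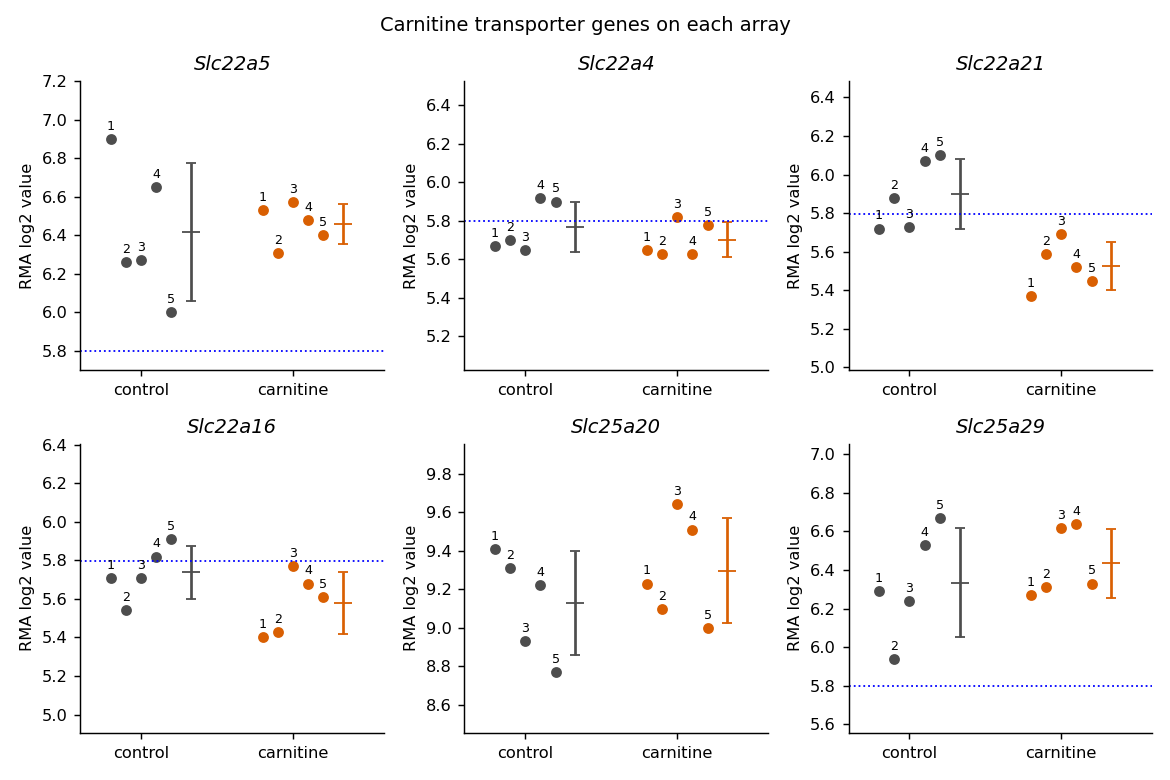
RMA log2 values of the 6 transporter genes (vertical axes, each spanning the same log2 range) for the control (grey) and carnitine (orange) mice, with replicate numbers beside the points, the mean and SD of each group (n = 5) as a bar, and the median probe set level of 5.80 as a dotted line where it falls in range. The groups overlap in every panel but that of Slc22a21, where the 5 carnitine mice lie between 5.37 and 5.69 and the controls between 5.72 and 6.10.

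Slc22a5, Slc22a21 and Slc22a4 are neighbours on mouse chromosome 11, with no other protein-coding gene between them in the RefSeq annotation of GRCm38.p6. Slc22a16 lies on chromosome 10, Slc25a20 on chromosome 9 and Slc25a29 on chromosome 12. RefSeq promoter windows of GRCm38.p6, from 250 bases before to 50 after the gene start, were matched by symbol for 5 of the 6 genes. Those of the neighbours Slc22a5 and Slc22a4 and of Slc25a20 are shown 5′ to 3′ on the strand of the gene, to set 2 adjacent genes of 1 family beside the mitochondrial carrier.
Slc22a5 (chr11:53891654-53891953, minus strand): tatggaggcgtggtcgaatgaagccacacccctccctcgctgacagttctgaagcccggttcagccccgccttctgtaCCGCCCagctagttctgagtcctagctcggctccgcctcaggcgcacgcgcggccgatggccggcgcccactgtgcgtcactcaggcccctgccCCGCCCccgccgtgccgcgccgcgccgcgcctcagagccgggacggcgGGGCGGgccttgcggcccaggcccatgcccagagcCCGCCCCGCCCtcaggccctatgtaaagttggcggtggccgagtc
Slc22a4 (chr11:54028055-54028354, minus strand): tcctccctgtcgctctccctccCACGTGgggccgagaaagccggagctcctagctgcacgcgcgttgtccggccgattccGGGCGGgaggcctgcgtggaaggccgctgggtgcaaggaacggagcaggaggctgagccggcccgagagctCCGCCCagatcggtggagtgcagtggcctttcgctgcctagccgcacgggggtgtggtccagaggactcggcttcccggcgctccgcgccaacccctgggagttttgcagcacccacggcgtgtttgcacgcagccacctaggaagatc
Slc25a20 (chr9:108661886-108662185, plus strand): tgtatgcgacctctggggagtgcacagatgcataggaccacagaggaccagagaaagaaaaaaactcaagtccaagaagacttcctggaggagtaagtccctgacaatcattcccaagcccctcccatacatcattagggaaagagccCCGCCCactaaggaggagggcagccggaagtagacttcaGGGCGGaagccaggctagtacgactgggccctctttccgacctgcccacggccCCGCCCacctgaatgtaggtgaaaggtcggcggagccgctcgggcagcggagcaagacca
Capitals mark GGGCGG, the GC box, or its reverse complement CCGCCC, and CACGTG, an E box. Slc22a5 held 5 GC boxes, a pair of them overlapping by 1 base after the gene start, Slc25a20 held 3, and Slc22a4 held 2 and 1 E box. Slc25a29 held 3 GC boxes and 2 copies of CCAAT or its reverse complement, and Slc22a16 held 1 GC box and 2 E boxes. Of 32544 promoter windows of the same length, 35.9% held a GC box, 37.4% CCAAT and 7.17% CACGTG on either strand. The windows of Slc22a5, Slc25a29 and Slc22a4 were 72.7%, 72.3% and 69.0% G and C, those of Slc22a16 and Slc25a20 58.7% and 58.0%, and the median window was 53.0%. Slc22a5 and Slc25a20 are known targets of PPAR-alpha, the nuclear receptor that senses fatty acids. The half-site AGGTCA was found in none of the 5 windows on either strand (16.2% of all windows held it), nor was its direct repeat DR1, with any 1 base between the copies (0.0399%), nor TATAAA (13.6%), which says only that these letters are not in these windows.

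Slc22a5 encodes OCTN2, the high-affinity carnitine transporter of the muscle cell membrane. Its RMA log2 values were 6.90, 6.26, 6.27, 6.65 and 6.00 in control mice 1 to 5 and 6.53, 6.31, 6.57, 6.48 and 6.40 in carnitine mice 1 to 5. All 5 carnitine mice lay inside the control range, and the highest and the lowest of the 10 values were both controls. The control mean was 6.42 ± 0.36 (SD, n = 5) and the carnitine mean 6.46 ± 0.10 (SD, n = 5). The difference, carnitine minus control, was 0.04 (SE 0.14), and its 95% confidence interval from -0.27 to 0.35 spans a 0.83-fold to a 1.28-fold level (limma adjusted p = 0.94). The sign turned to -0.06 without control replicate 5, the lowest of the controls, and to -0.05 with array weights. The SD in control was wider than in carnitine, a difference in spread that was not tested.

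Slc22a4 encodes OCTN1, a close relative of OCTN2 that prefers the fungal antioxidant ergothioneine and carries carnitine weakly. The controls read 5.67, 5.70, 5.65, 5.92 and 5.90, and the carnitine mice 5.65, 5.63, 5.82, 5.63 and 5.78. Only 0.29 log2 units separated the lowest from the highest of the 10 arrays, the narrowest range of the 6 genes. Control averaged 5.77 ± 0.13 and carnitine 5.70 ± 0.09 (SD, n = 5 per group), and the difference was -0.07 (SE 0.091, 95% interval -0.26 to 0.13, limma adjusted p = 0.85). It was above the array's own median on 2 of 10 arrays.

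Slc22a21 encodes OCTN3, a rodent carnitine transporter first described in testis. In control mice 1 to 5 the values were 5.72, 5.88, 5.73, 6.07 and 6.10, and in carnitine mice 1 to 5 they were 5.37, 5.59, 5.69, 5.52 and 5.45. The highest carnitine value, 5.69 in replicate 3, lay 0.03 below the lowest control. Control averaged 5.90 ± 0.18 (SD, n = 5) and carnitine 5.52 ± 0.12 (SD, n = 5), which differ by -0.38 (SE 0.10, 95% interval -0.60 to -0.15), or a 0.77-fold level. The exact two-sided permutation p was 0.0079, the smallest that 5 against 5 arrays can give, and unadjusted. Groups that do not overlap always give this p, so it adds nothing to the separation. In limma the unadjusted p was 0.0028 and the adjusted p 0.71, so the difference did not pass over all genes. Lower groups without overlap were found in 0.609% of all genes and in 1.08% of the 9251 genes below the median probe set level. An unadjusted p below 0.05 on the lower side was found in 6.71% of those dim genes.

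The separation of Slc22a21 lies in a part of the scale where most genes read lower in carnitine muscle. Of genes below the median probe set level, 73.1% had a negative difference, with a median of -0.07, while genes at or above that level had a median of 0.04. Relative to the median of the 1105 genes at a like level, -0.06, Slc22a21 was lower by a difference of -0.32, and after each array was further centred on its median or scaled by cyclic loess its difference was -0.33 or -0.31. Without control replicate 5, whose values had the narrowest interquartile range (2.20 against 2.39 to 2.59) and the highest median (5.96 against 5.72 to 5.86), it was also -0.33, with a limma adjusted p of 0.85. With each array left out in turn, the limma unadjusted p of Slc22a21 ran from 0.0018 to 0.0094. Within the groups, the deviations of Slc22a21 went with those of the array median (Pearson r 0.73 over 10 arrays, 0.65 without control replicate 5). This was not particular to Slc22a21. The r was 0.84, 0.75 and 0.70 for Slc25a29, Slc22a16 and Slc22a4, and -0.43 and -0.39 for Slc22a5 and Slc25a20. The r usual for genes at a like level was not computed. The 2 controls with the highest Slc22a21 values, replicates 4 and 5, also had the highest array medians, and the part of this in the difference was not tested. The probes of Slc22a21 may also read transcripts of its relatives Slc22a5 and Slc22a4, so its level is uncertain.

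**Figure D2:**
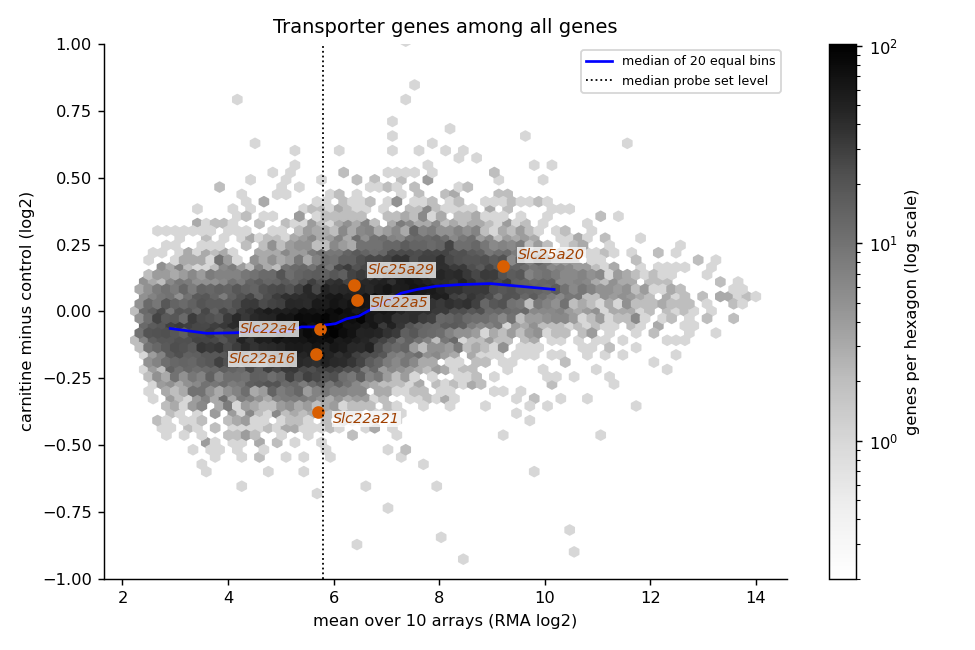
Carnitine minus control (vertical axis, log2) against the mean over 10 arrays (horizontal axis, RMA log2) for all genes as shaded hexagons, with the 6 transporter genes in orange, the median probe set level as a dotted line and the median of each of 20 equal bins of genes in blue; 10 genes beyond 1 log2 unit are off the axis. The bin medians run from -0.08 to 0.10, the 3 dim transporters have negative and the 3 brighter ones positive differences, and Slc22a21 at -0.38 lies farthest from the blue line.

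Whether Slc22a21 and Slc22a5 changed unequally was asked with their difference within each array, which an equal shift of all values of an array cannot alter. A shift that depends on level is not removed. Over 10 arrays the r with the array median was 0.73 for Slc22a21 and -0.43 for Slc22a5, and 0.65 and 0.05 without control replicate 5. The pair was chosen with earlier results of these data known, so the p below is no independent evidence of a difference. Slc22a21 minus Slc22a5 was -1.18, -0.38, -0.54, -0.58 and 0.10 in controls 1 to 5 and -1.16, -0.72, -0.88, -0.96 and -0.95 in carnitine mice 1 to 5. The carnitine mice lay inside the control range, of which replicate 1 was the low end. The means were -0.52 ± 0.46 and -0.93 ± 0.16 (SD, n = 5 per group), and the change in this quantity, -0.42, had an exact two-sided permutation p of 0.0952. Without control replicate 1 the change was -0.58 and the groups did not overlap, and the exact permutation p became 0.0079, so that this 1 array decides on which side of 0.05 the test falls. Without control replicate 5 the change was -0.26 (exact permutation p = 0.17), and with cyclic loess it was -0.37 (exact permutation p = 0.0952).

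Slc22a16 encodes a carnitine and organic cation transporter known in people from testis and blood-forming cells. The controls read 5.71, 5.54, 5.71, 5.82 and 5.91 and the carnitine mice 5.40, 5.43, 5.77, 5.68 and 5.61. Carnitine mice 1 and 2 lay under every control and the other 3 within the control range. The difference was -0.16 (SE 0.10, 95% interval -0.38 to 0.06, limma adjusted p = 0.72), from 5.74 ± 0.14 (SD, n = 5) in control to 5.58 ± 0.16 (SD, n = 5) in carnitine. On 0 of 10 arrays was it above the array's median.

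Slc25a20 encodes CACT, which exchanges long-chain acylcarnitine for free carnitine across the mitochondrial inner membrane. Its values were 9.41, 9.31, 8.93, 9.22 and 8.77 in controls 1 to 5 and 9.23, 9.10, 9.64, 9.51 and 9.00 in carnitine mice 1 to 5. Carnitine mice 3 and 4 were the highest of all 10, controls 3 and 5 the lowest, and the groups overlapped. The control mean of 9.13 ± 0.27 and the carnitine mean of 9.30 ± 0.27 (SD, n = 5 each) lay apart by 0.17 (SE 0.14, 95% interval -0.14 to 0.48, 0.91-fold to 1.39-fold, limma adjusted p = 0.76). Genes at a like level had a median difference of 0.10, which leaves 0.06 for Slc25a20 beyond it, and cyclic loess also gave 0.06.

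Slc25a20 varied between mice along with the slow-fibre genes, most plainly in the carnitine group. The mean of 7 slow-fibre genes (Myh7, Tnnc1, Tnni1, Tnnt1, Myl2, Myl3 and Atp2a2) was 10.12, 9.12, 9.66, 9.79 and 9.13 in controls and 8.42, 7.45, 9.57, 9.92 and 6.74 in carnitine mice 1 to 5. Within the carnitine group, replicates 3 and 4 were above replicates 1, 2 and 5 for both the slow-fibre mean and Slc25a20. Among the controls, replicate 1 was the highest for both. Control replicate 2 had the lowest slow-fibre mean of the controls, 9.12, but an Slc25a20 value of 9.31, above replicates 3, 4 and 5. Over the 10 arrays, deviations from the group means of the 2 measures had a Pearson r of 0.75, and 0.79 without control replicate 5, a description of arrays that share their scaling. The slow-fibre mean was lower in carnitine by a difference of -1.14, with all 7 genes negative, while the difference of Slc25a20 was positive, and the part of fibre content in it was not tested. For Slc22a5 the same r was 0.45, for Slc25a29 0.45, for Slc22a16 0.40, for Slc22a21 0.07 and for Slc22a4 -0.10. Without control replicate 5 these were 0.45, 0.64, 0.52, 0.17 and -0.04 in this order.

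**Figure D3:**
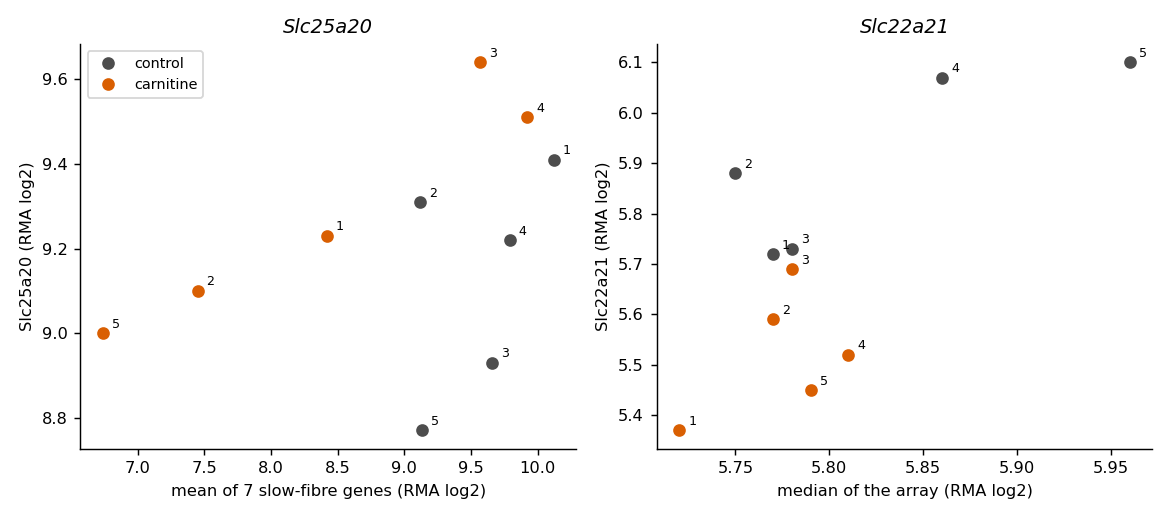
Slc25a20 against the mean of 7 slow-fibre genes (left) and Slc22a21 against the median of the array (right), in RMA log2 values, for control (grey) and carnitine (orange) mice with replicate numbers. On the left, carnitine mice 1, 2 and 5 lie below carnitine mice 3 and 4 on both axes; on the right, controls 4 and 5 are highest on both axes.

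Slc25a29 encodes an inner membrane carrier first described as a carnitine-acylcarnitine carrier-like protein and later found to move basic amino acids such as arginine and lysine. Values of 6.29, 5.94, 6.24, 6.53 and 6.67 in controls and 6.27, 6.31, 6.62, 6.64 and 6.33 in carnitine mice overlapped fully, all 5 carnitine mice lying inside the control range. The means were 6.33 ± 0.28 and 6.43 ± 0.18 (SD, n = 5 per group), with a difference of 0.10 (SE 0.13, 95% interval -0.19 to 0.39, limma adjusted p = 0.84). Without control replicate 2, the lowest array, the difference was 0.0015.

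Among the 15 pairs of transporter genes, the deviations from the group means went together most in Slc22a16 and Slc25a29 (r 0.91 over 10 arrays, 0.89 without control replicate 5), then in Slc22a4 and Slc22a21 (0.78 and 0.72) and in Slc22a5 and Slc25a20 (0.69 and 0.57). Slc25a29, Slc22a16, Slc22a21 and Slc22a4 also went with the array median (r 0.84, 0.75, 0.73 and 0.70, and 0.80, 0.73, 0.65 and 0.63 without control replicate 5). For Slc22a5 and Slc25a20 this r was -0.43 and -0.39, and 0.05 and -0.02 without control replicate 5. Of markers of other cells, the mean of 5 T cell genes went with Slc25a29 (r 0.83), Slc22a16 (0.79), Slc22a21 (0.69) and Slc22a4 (0.69), with 0.78, 0.80, 0.56 and 0.60 in this order without control replicate 5. That mean ran from 5.14 to 5.75 in control and from 5.02 to 5.29 in carnitine, 5 of 5 of its genes had a negative difference and 1 of 5 was above the median probe set level, and its part in the values of the transporters was not tested. The mean of 4 measured adipocyte genes went against Slc22a5 (r -0.79, and -0.73 without control replicate 5). It ran from 5.62 to 6.29 in control and from 5.54 to 5.96 in carnitine, with 3 of 4 genes negative and 2 of 4 above the median probe set level, and its part was not tested either. Named as the largest r among the marker lists of other cells, these values are high by selection. The T cell mean was highest in controls 4 and 5, which also had the highest array medians. Endothelium had an r of 0.66 with Slc25a20, 0.63 with Slc22a5, -0.52 with Slc22a21, -0.61 with Slc22a4 and Slc25a29, and -0.64 with Slc22a16. The neutrophil mean had an r of 0.70 with Slc25a29.

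The genes whose deviations were most like those of a member were sought among 11851 genes at or above the median probe set level, by Pearson's r over the 10 arrays. They were Rfc2 (0.99), Raph1 (0.96) and Evc (0.96) for Slc22a5, and Nt5c2 (0.97), Mrpl37 (0.97) and Arl15 (0.96) for Slc25a20. For Slc25a29 they were Usp17ld (0.98), Hmx2 (0.95) and Mmp24 (0.95), and for Slc22a21 Basp1 (0.95), Rgs11 (0.95) and Lfng (0.94). Slc22a4 was most like Col4a4 (0.95), Itih1 (0.93) and its family member Slc22a12 (0.93), and Slc22a16 most like Alk (0.93), Lrrc43 (0.93) and Hmx2 (0.93). As the highest of so many correlations over 10 arrays, these values are a description and are high by selection. Mrpl37 encodes a mitochondrial ribosomal protein and Nt5c2 a cytosolic nucleotidase, with differences of 0.09 (SE 0.12) and -0.10 (SE 0.15) between the diets. Rfc2, which encodes a replication factor C subunit, differed by 0.41 (SE 0.11, limma adjusted p = 0.71).

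Genes that act on carnitine next to the transporters showed no adjusted call. Of 11 listed genes for carnitine acyltransferases and carnitine synthesis, 10 were measured (the probe set of Cpt1b carries several gene symbols), 6 read higher and 4 lower on average, and the median difference was 0.04. Of the 10, 9 lay above the median probe set level, against 58.3% of all genes. The median difference over all genes at or above that level was also 0.04. At an unadjusted p below 0.05, 1 was higher, against 3.14% of all genes, and 0 lower, against 3.83%. That gene was Shmt1, a serine hydroxymethyltransferase proposed for the aldolase step of carnitine synthesis, at 0.23 (SE 0.10, limma adjusted p = 0.71). Cpt1c, a brain form of carnitine palmitoyltransferase, stood at -0.14 (SE 0.093), Aldh9a1, which oxidises the trimethylaminobutyraldehyde of carnitine synthesis, at -0.24 (SE 0.16), and the peroxisomal octanoyltransferase gene Crot at 0.19 (SE 0.15).

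**Figure D4:**
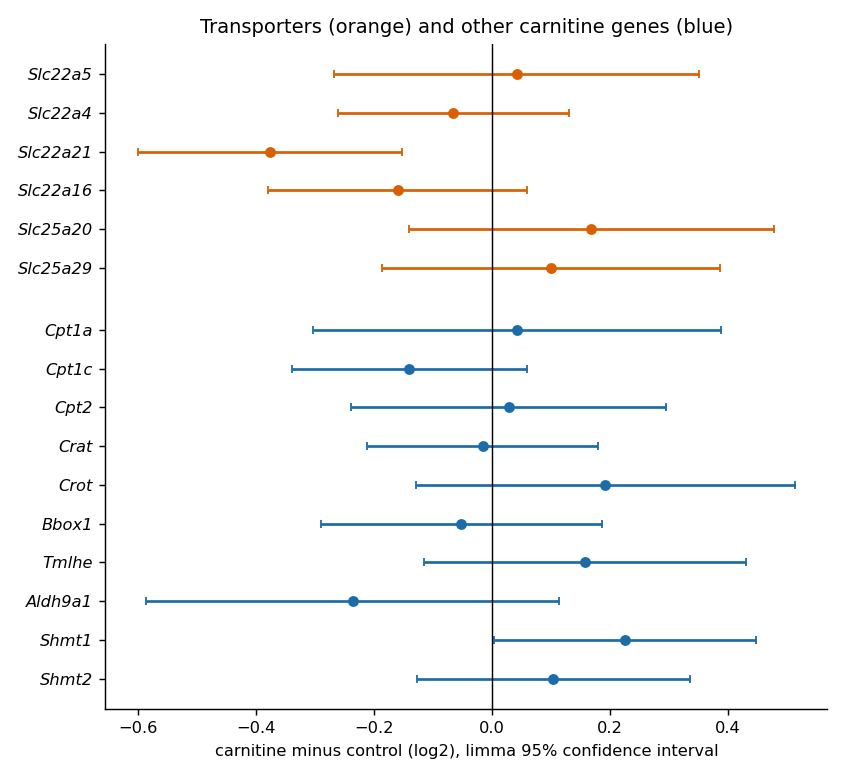
Carnitine minus control on the log2 scale (horizontal axis) with limma's 95% confidence interval for the 6 transporter genes (orange) and 10 genes of carnitine acyltransferases and synthesis (blue). The intervals, unadjusted for the number of genes, include 0 except those of Slc22a21 (-0.60 to -0.15) and Shmt1 (0.0040 to 0.45).

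Of 22 other members of the SLC22 family, which carry organic cations and anions chiefly in kidney and liver, 20 were measured. Of these 20, 6 lay above the median probe set level, against 58.3% of all genes. The differences of the 20 were positive in 6 and negative in 14, with a median of -0.07. Of the 14 below the median probe set level 9 were negative, where 73.1% of all genes at that level were, and of the 6 above it 5 were negative, where 36.9% of all genes were. At an unadjusted p below 0.05 there was 1 lower gene, against 3.83% of all genes, and 0 higher, against 3.14%. Slc22a13b was the lower one, at -0.54 (SE 0.13, limma adjusted p = 0.71), from 5.74 ± 0.18 (SD, n = 5) in control to 5.20 ± 0.26 (SD, n = 5) in carnitine, with every carnitine mouse below every control, as in Slc22a21. Slc22a14 stood at -0.29 (SE 0.14), Slc22a30 at 0.19 (SE 0.098) and Slc22a26 at -0.18 (SE 0.092), all below the median probe set level.

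Of 8 SLC25 carriers near Slc25a20 and Slc25a29 in function or sequence, all measured, 3 were positive and 5 negative (median -0.02), and Slc25a16, a carrier tied to mitochondrial coenzyme A, had the smallest p, at 0.26 (SE 0.098, limma adjusted p = 0.71). Slc25a2, an ornithine carrier gene in people, stood at -0.18 (SE 0.12) and Slc25a45 at -0.15 (SE 0.089). Of 7 other carnitine carriers and scaffold proteins of OCTN2, 6 were measured, 3 positive and 3 negative (median -0.06). Slc6a14, an amino acid transporter that also takes carnitine, stood at -0.22 (SE 0.11), Pdzd3, a PDZ scaffold gene, at -0.23 (SE 0.099), and Slc9a3r2, another PDZ scaffold gene, at 0.24 (SE 0.14). In these lists, unadjusted p fell below 0.05 for Slc25a16 and Pdzd3 of 14 measured genes, against 6.97% of all genes, and limma's adjusted p was below 0.05 for 0 genes.

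Of 12 regulators tied to the transporter genes, 8 were positive and 4 negative, with a median of 0.04. All 12 lay above the median probe set level, against 58.3% of all genes. The median difference over all genes at or above that level was also 0.04. Rxrg, the retinoid X receptor form of skeletal muscle and a partner of the PPAR receptors, had the smallest p, at 0.31 (SE 0.11, limma adjusted p = 0.71), and was the 1 gene of the list with an unadjusted p below 0.05, a share near the 6.97% of all genes. Ppara, which encodes PPAR-alpha, differed by 0.03 (SE 0.17). Runx1, a transcription factor, stood at 0.13 (SE 0.088), Rxra at 0.14 (SE 0.12) and Nrf1 at 0.11 (SE 0.085).

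**Figure D5:**
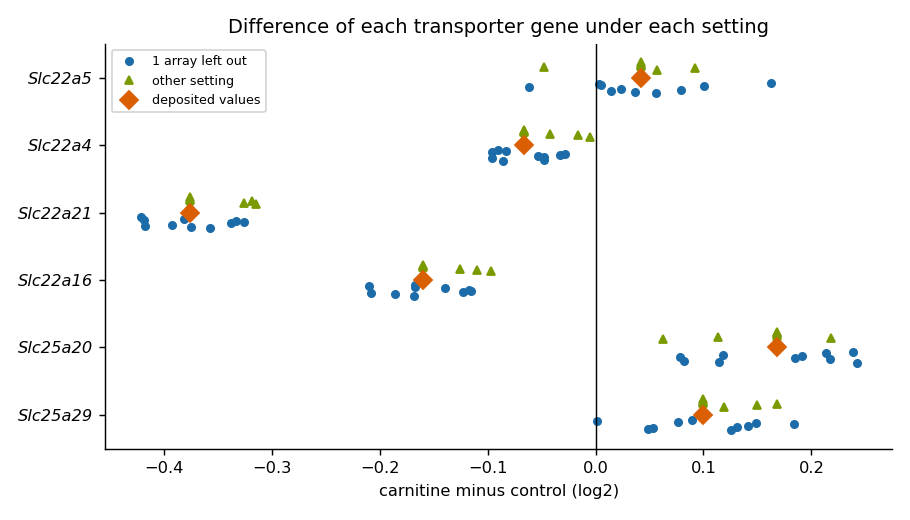
Carnitine minus control (horizontal axis, log2) of each transporter gene in the deposited values (diamond), with 1 array left out (circles) and under the other settings (triangles). Slc22a5 falls on both sides of 0, Slc25a29 reaches 0.0015, and Slc22a21 runs from -0.42 to -0.31 under every setting shown.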

How the data were processed

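The authors deposited log2 values for 10 arrays, made with RMA in Affymetrix Expression Console per the submitters' processing notes, with 2 decimals. For their versions and the genome build, the sources used here say nothing. RMA scales the arrays to each other, so a difference in total RNA cannot be seen, and it shrinks differences of dim probe sets, though the array medians still ran from 5.72 to 5.96. Depth does not apply, and the number of arrays limits the precision. Of 34390 probe sets, 23521 have exactly 1 gene symbol in the platform annotation, 1814 several and 9055 none listed. The brightest probe set per gene gave 22180 genes.

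Groups were compared in limma 3.58.1 under R 4.3.3 (carnitine minus control, trended eBayes, two-sided, Benjamini-Hochberg over all genes, no filter on dim genes). The fit was also run on simulated data with independent normal noise per gene. That simulation held no shift of arrays or of dim genes, so it cannot show how the fit behaves under those seen here. The Slc22a21 to Slc22a5 comparison used an exact permutation test. Named genes are the 6 members, up to 4 genes per list with the smallest p, Ppara (added after its values were seen) and the 3 most alike per member (odorant and vomeronasal receptors, microRNAs, small nucleolar RNAs and predicted genes left out). Of 5 erythroid markers listed, 0 matched a probe set with 1 symbol. The other marker lists were those of endothelium, fibroblast, macrophage, neutrophil, satellite cell and nerve, whose differences in mean log2 value were 0.06, 0.23, -0.06, -0.13, 0.06 and 0.19, with overlapping groups. Members and lists were chosen with earlier results of these data known. The groups share replicate numbers 1 to 5, but deviations of same-numbered arrays correlated from -0.13 to 0.24, and 2 pairs were under 0.1, so the numbers were not taken to pair mice. Promoter sequences are RefSeq's.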

Additional observations from a re-analysis of the deposited data

Results flagged for a closer look

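In 88 groups of 5 arrays, covering 43 named genes (all but Ppara) and the Slc22a21 to Slc22a5 difference, 1 array stood apart from the other 4 of its group by more than 0.71 of the group's range. It was control replicate 5 for Slc9a3r1, a PDZ scaffold gene of OCTN2, at 7.25 against 6.77 to 6.81 in the other controls. Chance alone gives such a gap in about 1 of 20 groups. None of the 6 transporter genes had such an array.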

How the results depend on the processing

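For the 6 transporter genes, the limma differences kept their sign under every setting run, except Slc22a5, which was -0.0477 with array weights and -0.062 without control replicate 5. No gene of the 6 passed an adjusted p of 0.05 in limma under any of them. With the replicate block, the difference of Slc22a21 was -0.376 (limma adjusted p 0.61), the block changed no call, and 2 of 5 controls correlated best with the carnitine array of their own number. With 1 array left out, the difference ran from -0.062 to 0.163 in Slc22a5, -0.0955 to -0.028 in Slc22a4, -0.421 to -0.326 in Slc22a21, -0.2095 to -0.1155 in Slc22a16, 0.0785 to 0.242 in Slc25a20 and 0.0015 to 0.184 in Slc25a29. Slc22a21, at -0.376, has an unadjusted exact permutation p of 0.0079 in place of the adjusted one, which restates that its groups do not overlap. Slc22a21 minus Slc22a5 ran from -0.584 (without control replicate 1, exact permutation p = 0.0079) to -0.264 (without control replicate 5, p = 0.1746), with p up to 0.1825. The sign-flip test of same-numbered pairs, a replicate block, gave -0.418 with an exact p of 0.125, in a design that cannot give a p below 0.0625. The 3 dim members drop out where genes below the median probe set level are left out. Over all genes, the count past the limma adjusted threshold was 0, and 1 without control replicate 2 (range 0 to 1 with 1 array left out), 1546 at an unadjusted p of 0.05 (2560 without control replicate 2) and 28 with a 1.5-fold difference as well. The cause of these changes was not tested. The background of the arrays was not measured here, so how far it limits Slc22a4, Slc22a21 and Slc22a16 is not known.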
